A study of Mus musculus with 6 samples.

Results

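The ligands described here are the subunits of the IL-12 family of cytokines (Il12a, Il12b, Il23a, Il27 and Ebi3), the cytokines IL-10 (Il10) and IL-15 (Il15), and 2 interferons, Ifnb1 and Ifng. They were chosen by name, though with earlier results of these data known, and each of the 9 genes was found on the array. Together they had 13 of the 44170 target rows, a row being the summary of the probes against 1 transcript: Il15 had 3 rows, Il12a and Il12b had 2 each, and the other 6 genes had 1 each. RNA of 6 livers was hybridised to NimbleGen arrays in a single colour, each array carrying the liver of 1 mouse. All were wild-type C57 BL/6 males aged 9 to 10 weeks, and all received 0.01 µg of LPS (lipopolysaccharide, the bacterial cell wall component sensed by Toll-like receptor 4). The LPS group was 3 mice given LPS alone, and the LPS/GalN group was 3 mice given LPS together with GalN at 20 mg (D-galactosamine, which hepatocytes take up and which makes mice very sensitive to LPS). Livers were taken 2.5 hours after treatment, and per the labels the mice of a group were treated separately. Neither untreated livers nor livers of mice that had GalN without LPS were analysed here. Each difference is therefore between 2 LPS-treated groups, and induction by LPS itself is not shown.

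Most of these ligands are made by macrophages and dendritic cells that have sensed a microbe. The IL-12 family members are pairs of chains: Il12a and Il12b encode the 2 chains of IL-12, Il23a pairs with the Il12b product to give IL-23, and the Il27 and Ebi3 products together form IL-27. IL-12, with IL-18 and IL-15, drives NK and T cells to make interferon gamma, IL-27 and IL-10 restrain the response, and IL-15 is shown to NK and T cells bound to its own receptor alpha chain, Il15ra. Interferon beta acts on nearly every cell through STAT factors to switch on antiviral genes. In liver, Kupffer cells are a main source of such cytokines after LPS.

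RefSeq promoter windows (GRCm38.p6) were at hand for 5 of the genes: Il12a (2 start sites), Il12b, Ebi3, Ifnb1 and Ifng. Il23a, Il27, Il10 and Il15 had none in the table used. The 250 bases before each start were searched on both strands for 3 motifs: the NF-kB consensus, a pair of core sites for interferon regulatory factors (GAAANNGAA) and a STAT site (TTCNNNGAA). Over the same length, 7.25% of all 32851 promoters in the table held the first, 7.13% the second and 7.02% the third. The last 150 bases before the start are shown for 3 ligand genes, with matches in capitals.
Il12b, chr11:44399913-44400062, plus strand: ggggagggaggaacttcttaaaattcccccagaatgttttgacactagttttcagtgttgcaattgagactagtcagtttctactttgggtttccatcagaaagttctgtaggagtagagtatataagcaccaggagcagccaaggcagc
Ebi3, chr17:55952473-55952622, plus strand: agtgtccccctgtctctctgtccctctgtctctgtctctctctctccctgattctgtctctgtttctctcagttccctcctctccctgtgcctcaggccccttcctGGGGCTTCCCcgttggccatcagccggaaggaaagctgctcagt
Ifnb1, chr4:88522795-88522944, minus strand: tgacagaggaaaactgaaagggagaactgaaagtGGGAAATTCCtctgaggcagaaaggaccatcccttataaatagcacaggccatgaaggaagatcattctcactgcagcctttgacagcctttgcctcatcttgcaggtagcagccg
Ebi3 held an NF-kB match, read on both strands, at 44 to 35 bases before the start. The match of Ifnb1 lay at 116 to 107 bases before it. Ifng, not shown, held a STAT match at 249 to 241 bases before its start, and no match to these letters was found in the windows of Il12b and Il12a. A match is only a likeness of letters, and none of these arrays measured binding.

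As the level of background on each array, the row that summarises 5000 random probes was used. Its RMA intensity was 31.3 to 34.7, against a median over all rows of 60.4 to 63.1, and 17.5% to 22.02% of rows were at or below it. Many of the ligands lay close to it, which limits what 3 arrays a group can resolve. Arrays correlated at 0.952 to 0.970 within groups and 0.916 to 0.947 between groups, over all rows on the log2 scale. Some arrays stood apart in markers of other tissues. The summed intensity of 11 T cell markers was 587 to 888 in LPS but 572, 12095 and 8006 in LPS/GalN replicates 1, 2 and 3, with thymocyte markers high on the same 2 arrays. That of 9 intestinal epithelium markers was 33274 and 36105 in LPS replicates 1 and 2, against 6758 in LPS replicate 3 and 5242 to 5937 in LPS/GalN. Of these lists, 5 T cell markers, the defining genes Cd3d, Cd3e and Cd8a included, and 4 intestinal ones (Muc2, Cdx1, Cdx2, Reg3b) were not above background on all 6 arrays. Each ligand row that passed the test is therefore also given on the arrays without these signals, LPS replicate 3 and LPS/GalN replicate 1. In those rows every LPS/GalN array was below every LPS array, so the direction on this pair of arrays was fixed in advance. Only the values are to be read there, and the part of the other tissues in them was not tested. Liver identity was plain on all 6 arrays, with 10 of 10 hepatocyte markers above background and sums of 377495 to 416559.

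Of the 13 ligand rows, 4 were lower in LPS/GalN by limma at an adjusted p under 0.05 (1 row of Il27, 2 of Il15 and 1 of Il12b), and 0 were higher. Over all target rows the same test called 3.13% lower and 0.654% higher. In 7 of the 13 rows every LPS/GalN array was below every LPS array, a pattern seen in 11.1% of all rows. The median log2 difference of the 13 rows was -0.87, against 0.05 over all rows, with quartiles of -0.27 and 0.34. Taking each gene by its brightest row, 2 of the 9 genes (Il27 and Il15) were called lower. Il12b is not among them because its called row ranked second over all 6 arrays. In LPS alone that row had the higher mean (6.93 against 6.51). Since rows of 1 gene share a transcript, they are not separate evidence. The livers are whole tissue, so fewer cells of a type and less RNA per cell cannot be told apart in any of these values.

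**Figure D1:**
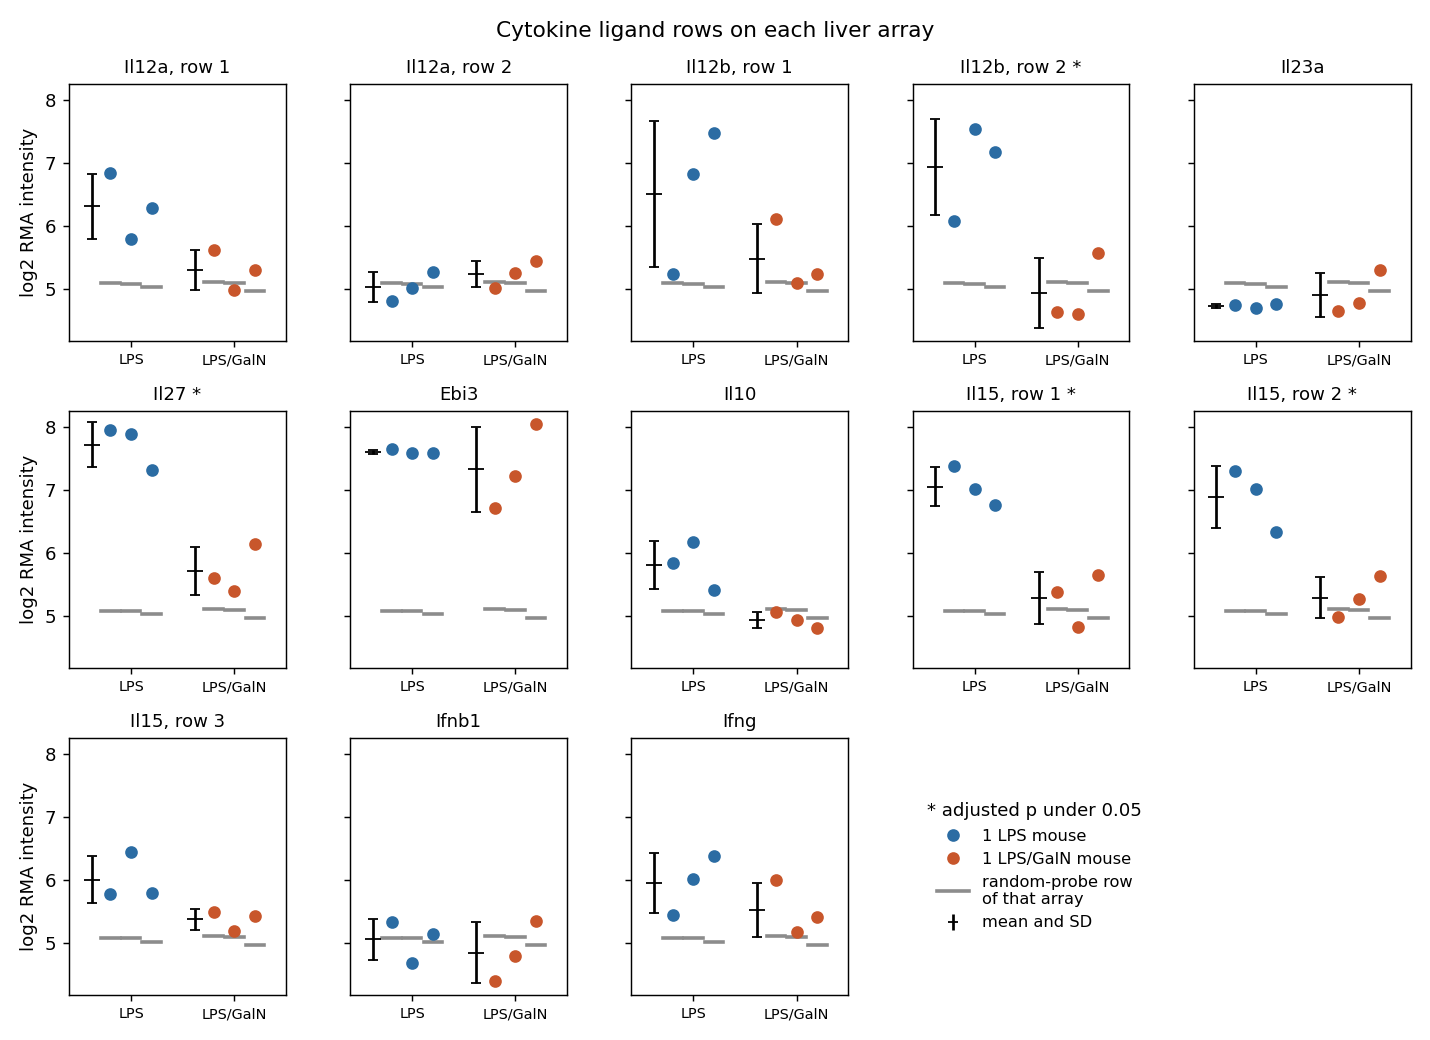
Each panel is 1 target row, with rows of a gene numbered by brightness; points are single arrays on a log2 RMA intensity axis, with mean and SD (3 arrays) and the random-probe level of each array as a grey dash. Il27 and the 2 brighter Il15 rows show LPS/GalN points well below all LPS points, while Ebi3 overlaps and Il23a and Ifnb1 sit around the grey dashes.

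Of the 2 chains of IL-27, Il27 fell and Ebi3 did not pass the test. Il27, the alpha chain (chr7:133732762-133738455, mm9), read a log2 RMA intensity of 7.95, 7.90 and 7.32 in the LPS livers and 5.60, 5.40 and 6.14 in the LPS/GalN livers. All LPS livers were above all LPS/GalN livers, and all 6 arrays were above background. The difference was -2.01 ± 0.29 (log2, SE; 3 mice a group here and throughout), with a 95% interval of -2.68 to -1.34 and an adjusted p of 0.00772. Ebi3 (chr17:56092097-56096445), the beta chain, read 7.65, 7.58 and 7.60 in LPS and 6.72, 7.22 and 8.05 in LPS/GalN. The LPS livers were almost identical for Ebi3, and the LPS/GalN livers lay on both sides of them. Its difference was -0.28 ± 0.34, adjusted p 0.731, with an interval of -1.06 to 0.50, which leaves room for a fall of about 1 log2 unit.

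Within an array, log2 Il27 minus log2 Ebi3 was 0.30, 0.32 and -0.28 in LPS and -1.12, -1.82 and -1.91 in LPS/GalN. The groups did not overlap, and the mean difference between them was -1.73. An exact two-sided permutation test gave p = 0.1, the smallest that 3 against 3 arrays can give, and 0.4 after Benjamini-Hochberg adjustment over the 4 chain pairs compared. The design could thus not pass a threshold of 0.05 on this ratio, whatever its size. The sign of the ratio itself carries no meaning, since the level of 1 row cannot be set against that of another.

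**Figure D2:**
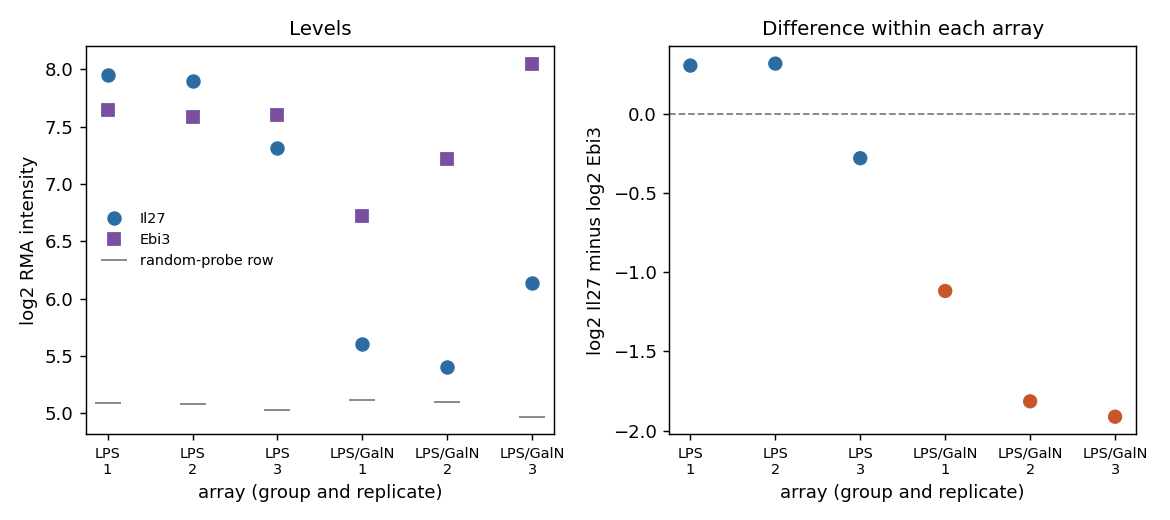
Left, log2 RMA intensity of the Il27 and Ebi3 rows on each of the 6 arrays, with the random-probe row as grey dashes; right, log2 Il27 minus log2 Ebi3 within each array. The right panel runs from -0.28 to 0.32 in LPS and from -1.91 to -1.12 in LPS/GalN, and in the left panel the LPS/GalN arrays read 5.40 to 6.14 for Il27 and 6.72 to 8.05 for Ebi3.

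On the arrays without thymus or intestine signal Il27 read 5.60 in LPS/GalN replicate 1 and 7.32 in LPS replicate 3. The call was kept when any 1 array was left out (adjusted p 0.0108 to 0.0429). Without LPS/GalN replicates 2 and 3 the difference was -2.12, adjusted p 0.0953, and without LPS replicates 1 and 2 it was -1.60, adjusted p 0.291. Both fits leave a group with 1 mouse, assumed to vary like the others, and the second called 0 of all rows. For Ebi3, leaving out LPS/GalN replicates 2 and 3 changed the difference from -0.28 to -0.89, adjusted p 0.307. Within the LPS/GalN group, Ebi3 was higher on the 2 arrays that also carried T cell and thymocyte markers, and the part of those cells in its level was not tested.

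The chains of IL-12 were low and uneven. Il12a, the IL-12 alpha chain (chr3:68495345-68502447), read 6.84, 5.80 and 6.29 in LPS and 5.61, 4.99 and 5.31 in LPS/GalN on its brighter row. The groups did not overlap there, and 1 LPS/GalN array was at background. The difference was -1.01 ± 0.32 and did not pass the test (adjusted p 0.147). The second Il12a row lay at background, above it on 1 LPS and 2 LPS/GalN arrays, and differed by 0.21 ± 0.24 (adjusted p 0.713).

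Il12b encodes the chain shared by IL-12 and IL-23 (chr11:44213581-44227519). Its brighter row, designed on an SJL/J strain transcript, read 5.23, 6.82 and 7.48 in LPS and 6.10, 5.09 and 5.24 in LPS/GalN. The groups overlapped, because LPS replicate 1 was near background and LPS/GalN replicate 1 was not, and the difference of -1.03 ± 0.56 did not pass (adjusted p 0.395). It ranged from -0.54 without LPS replicate 3 to -1.67 without LPS replicate 1. The other row read 6.08, 7.54 and 7.18 in LPS and 4.64, 4.59 and 5.58 in LPS/GalN. It did not overlap, 2 of 3 LPS/GalN arrays were at background, and the difference of -1.996 ± 0.43 passed narrowly (adjusted p 0.0457). Both rows were lower in LPS/GalN on average, and both had LPS replicate 1 as the lowest LPS liver. They disagreed on LPS/GalN replicate 1, which was the highest LPS/GalN liver on 1 row and at background on the other.

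The call for that second Il12b row rested on the full set of arrays. It was lost when LPS replicate 2 or 3 or any LPS/GalN array was left out, with adjusted p-values up to 0.156, and kept without LPS replicate 1 (0.0260). Raising values below background to the background level gave -1.67 and an adjusted p of 0.0746. On the arrays without thymus or intestine signal it read 4.64 in LPS/GalN replicate 1 against 7.18 in LPS replicate 3.

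Il23a, the chain particular to IL-23 (chr10:127733194-127735124), was at background. It read 4.74, 4.69 and 4.76 in LPS, all below the random-probe row, and 4.64, 4.77 and 5.30 in LPS/GalN, where only replicate 3 was above it. The difference of 0.17 ± 0.25 (adjusted p 0.775) is one between values with no measured level in LPS, and no fold is given. Of the remaining pairings of chains, Il12a minus Il12b differed by 0.02 between groups (exact two-sided permutation p = 1) and Ebi3 minus Il12a by 0.73 (p = 0.3), in a test that could not go below 0.1. The pairing of Il23a with Il12b is not given, since Il23a was at background.

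Il10, the cytokine that restrains macrophages (chr1:132916446-132921382), was above background on every LPS array and on no LPS/GalN array. It read 5.84, 6.18 and 5.41 in LPS and 5.07, 4.94 and 4.81 in LPS/GalN. The groups did not overlap, and the fitted difference of -0.87 ± 0.26 had an adjusted p of 0.127. Since LPS/GalN gives only a bound, the mean LPS level was at least 1.68-fold higher. The 2 LPS livers with the highest Il10 were replicates 1 and 2, those with intestine markers. Without them the difference was -0.47 (adjusted p 0.756), and the part of that tissue in the Il10 level was not tested.

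Il15 fell. This growth and survival factor of NK cells and memory T cells (chr8:84855522-84926469) read 7.39, 7.02 and 6.76 in LPS and 5.38, 4.83 and 5.64 in LPS/GalN on its brightest row, which was designed on an isoform transcript. Every LPS liver was above every LPS/GalN liver. The difference was -1.77 ± 0.29, interval -2.44 to -1.10, adjusted p 0.0137. The second row gave nearly the same picture, with 7.31, 7.02 and 6.34 in LPS, 4.98, 5.27 and 5.63 in LPS/GalN and a difference of -1.60 ± 0.31 (adjusted p 0.0308). On each of these rows 1 LPS/GalN array was at background. The third and dimmest row read 5.79, 6.44 and 5.80 in LPS and 5.50, 5.20 and 5.44 in LPS/GalN, without overlap, and its difference of -0.63 ± 0.26 did not pass (adjusted p 0.259).

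For the brightest Il15 row, leaving out LPS replicate 1 gave -1.61 with an adjusted p of 0.0648, and leaving out LPS replicate 2 gave -1.79 with 0.0584. The call was kept without any other single array. The second row lost its call without LPS replicate 1 or 2 or any 1 LPS/GalN array (adjusted p up to 0.118), and kept it without LPS replicate 3. On the arrays without thymus or intestine signal the brightest row read 5.38 in LPS/GalN replicate 1 and 6.76 in LPS replicate 3, and the second row 4.98 and 6.34. Without LPS/GalN replicates 2 and 3 the difference was -1.68 on the brightest row and -1.91 on the second. Without LPS replicates 1 and 2 it was -1.47 on the brightest row and -1.05 on the second. Each of these fits leaves 1 mouse in a group.

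The 2 interferon genes were near background and showed no difference past the spread. Ifnb1 (chr4:88168083-88168698) read 5.34, 4.69 and 5.15 in LPS and 4.40, 4.79 and 5.36 in LPS/GalN, above background on 2 and 1 arrays. Its difference was -0.21 ± 0.31 with an interval of -0.93 to 0.50 (adjusted p 0.782). Ifng (chr10:117878173-117882770), the NK and T cell interferon, read 5.46, 6.03 and 6.39 in LPS and 6.00, 5.18 and 5.41 in LPS/GalN. All 6 Ifng values were above background, by little in some, and the groups overlapped. The difference was -0.43 ± 0.33, interval -1.18 to 0.32 (adjusted p 0.555). Ifng was not high on the LPS/GalN arrays with T cell markers, at 5.18 and 5.41.

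Of 15 other interferon genes measured, 0 passed in either direction, with a median of 0.13. Ifna2, an interferon alpha, read 5.19, 4.97 and 5.19 in LPS and 5.54, 6.06 and 6.03 in LPS/GalN, a difference of 0.76 ± 0.24 (adjusted p 0.145). Ifna6, another, read 5.44, 5.63 and 5.71 in LPS and 4.66, 5.003 and 4.93 in LPS/GalN, where no array was above background, with a difference of -0.73 ± 0.22 (adjusted p 0.134). Interferon alpha genes are near-identical copies, and probes may not tell them apart.

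**Figure D3:**
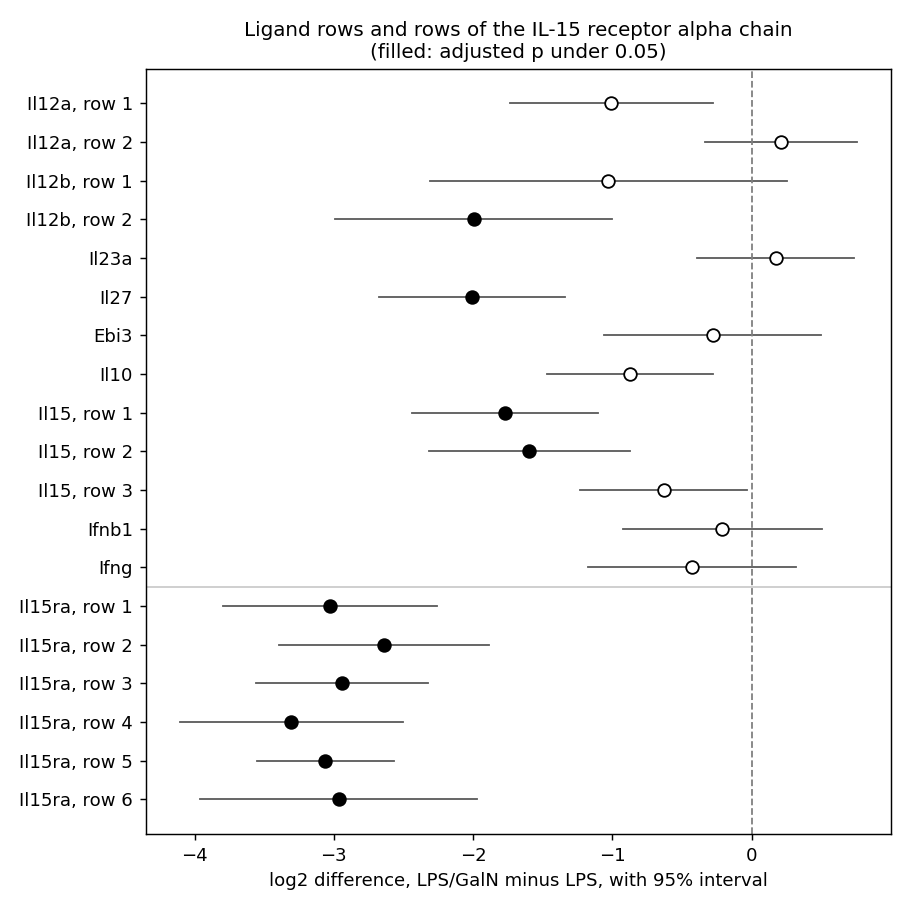
Log2 difference, LPS/GalN minus LPS, of each ligand row and of each row of Il15ra, with 95% intervals from the limma fit (3 against 3 arrays); filled points passed an adjusted p of 0.05. The intervals of the 4 filled ligand rows end at -0.88 or lower, and the 6 Il15ra rows lie between -3.30 and -2.64.

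Most receptors of these ligands did not pass the test, with Il15ra as the exception. Of 13 receptor genes measured, 1 was lower and 0 were higher, with a median of 0.14. Il15ra, the chain that holds IL-15 at the cell surface, read 12.58, 12.11 and 12.38 in LPS and 10.03, 9.07 and 8.89 in LPS/GalN on its brightest row. All LPS livers were far above all LPS/GalN livers, and the difference was -3.03 ± 0.33 (adjusted p 0.0024). Its other 5 rows differed by -2.64 to -3.30. RNA of Il15 and of Il15ra was thus lower in LPS/GalN than in LPS, and protein was not measured. The signalling chain genes Il2rb and Il2rg differed by 0.62 ± 0.29 (adjusted p 0.323) and 0.74 ± 0.27 (adjusted p 0.204), neither passing. Il2rg read 9.64, 9.63 and 9.66 in LPS and 9.87, 10.71 and 10.57 in LPS/GalN, highest on the 2 arrays with T cell and thymocyte markers, whose part in it was not tested. Il27ra, the IL-27 receptor chain, differed by 1.19 ± 0.41 (adjusted p 0.178), and Ifngr2, the signalling chain for interferon gamma, by -0.86 ± 0.23 (adjusted p 0.0918). Those 4 receptor genes were named after their values were seen.

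Of the kinases and STAT factors downstream, 5 of 11 were lower and 0 higher, with a median of -1.32. Irf9, the DNA-binding partner of STAT factors in type I interferon signalling, differed by -2.08 ± 0.25 (adjusted p 0.00332). Stat2, one of those factors, differed by -1.74 ± 0.21 (adjusted p 0.00348). Stat5a, which acts downstream of IL-15 receptors, differed by -1.79 ± 0.25 (adjusted p 0.00699) on its brightest row. Its other 3 rows differed by -1.04, -0.81 and -0.83 and did not pass (adjusted p 0.267, 0.114 and 0.165). The second row of Irf9 differed by -1.17 and did not pass either (adjusted p 0.212). Stat3, which acts for IL-10 and IL-27, differed by -1.37 ± 0.20 (adjusted p 0.00901), from 15.11, 15.003 and 15.19 in LPS to 13.76, 13.67 and 13.77 in LPS/GalN.

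Transcription factors that switch on these ligands were lower in 7 of 14 cases and higher in 0, with a median of -1.37. The NF-kB subunit genes Rela (-2.66 ± 0.24, adjusted p 0.00112), Nfkb1 (-2.01 ± 0.26, adjusted p 0.00436) and Nfkb2 (-1.73 ± 0.23, adjusted p 0.00529) fell. Irf1, an interferon regulatory factor that acts on several of the ligand genes, fell by 2.31 ± 0.25 (adjusted p 0.00224). Of the rows of these genes, 1 of 3 for Irf1 (-0.54, adjusted p 0.445) and 1 of 4 for Nfkb2 (-1.17, adjusted p 0.0503) did not pass. Ebi3 and Ifnb1, whose windows held NF-kB matches, did not pass, and Ifnb1 was near background in both groups. Il12b, whose window held no match to that consensus, passed on 1 of 2 rows. Il27 and Il15 had no window to search. The part of NF-kB in the ligands' values was not tested. These windows cover 250 bases only, a site that departs from the consensus is not found, and no order is drawn from them.

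Genes known as targets of these ligands were lower in most cases. Of 14 targets of type I interferon, 13 were lower and 0 higher, with a median of -3.59. Ifit1, an antiviral RNA-binding protein gene, read 14.38, 14.37 and 14.62 in LPS and 9.08, 8.88 and 10.15 in LPS/GalN, a difference of -5.09 ± 0.35 (adjusted p 0.000353). Cmpk2 differed by -5.18 ± 0.39, Mx2 by -4.93 ± 0.38 and Rsad2, which encodes the antiviral enzyme viperin, by -4.36 ± 0.35 (adjusted p 0.00065 or less). Of 17 targets of interferon gamma, 13 were lower and 0 higher, with a median of -2.65. Cxcl9, a T cell chemokine gene, read 14.68, 14.25 and 14.19 in LPS and 8.73, 7.995 and 9.62 in LPS/GalN, a difference of -5.59 ± 0.40 (adjusted p 0.00044). Gbp2 (-3.69 ± 0.27), Cd274 (-4.57 ± 0.35) and Nos2 (-3.43 ± 0.25), the inducible nitric oxide synthase gene, fell with adjusted p-values of 0.000514 or less. Many of these genes answer to both interferons, and some to NF-kB directly.

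Of 10 targets of IL-10, 6 were lower and 0 higher, with a median of -1.84. By mean, 8 of the 10 were lower, and Cd163 (0.84) and Il4ra (0.28 on its brightest row) went the other way without passing. Both were named after their values were seen. Socs3, a feedback inhibitor of cytokine signalling, differed by -3.44 ± 0.23 (adjusted p 0.000321), and Bcl3 by -3.36 ± 0.24 (adjusted p 0.0004). Il1rn, the IL-1 receptor antagonist gene, read 10.82, 10.66 and 10.88 in LPS and 7.53, 7.48 and 7.58 in LPS/GalN, a difference of -3.25 ± 0.21 (adjusted p 0.000303). Zfp36, whose product destabilises cytokine mRNAs, differed by -2.21 ± 0.23 (adjusted p 0.00208). Over all these lists, 44 of 100 different genes measured were lower and 0 higher. Without LPS/GalN replicates 2 and 3, 23 of them were called.

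**Figure D4:**
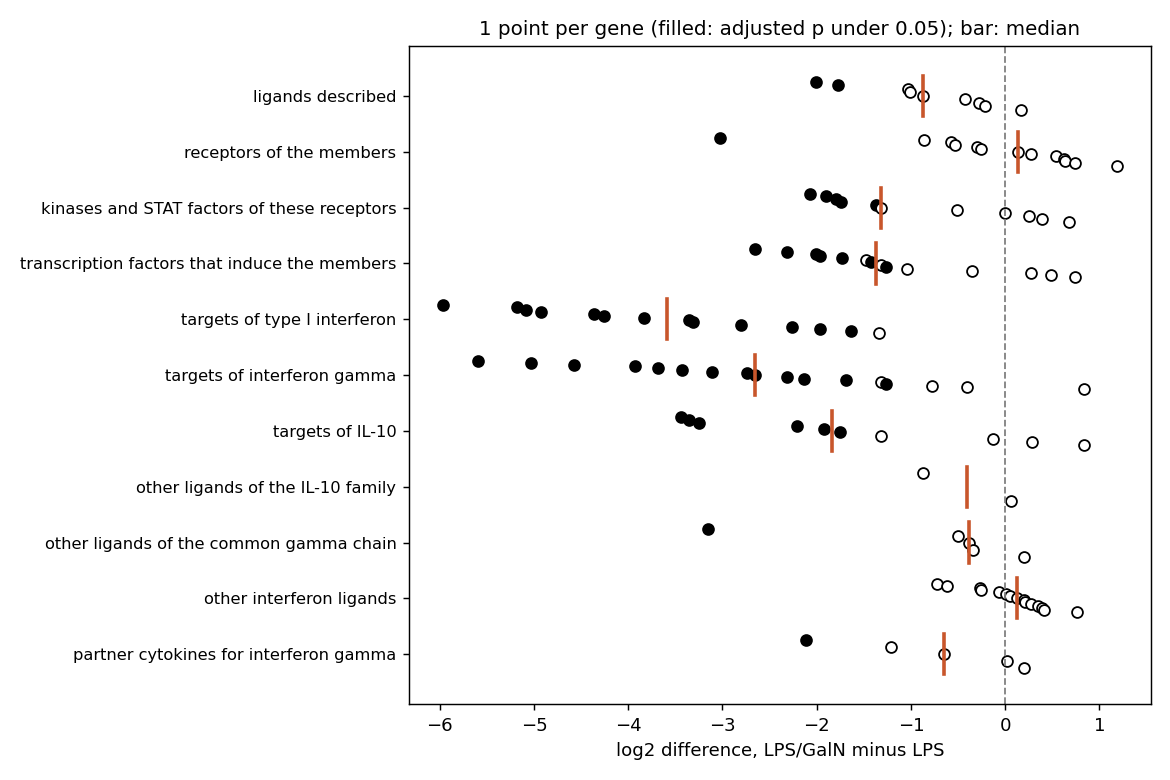
Log2 difference, LPS/GalN minus LPS, of each gene by its brightest row, 1 line per list, filled where the adjusted p was under 0.05, with the median of the list as a bar. Filled points all lie left of 0; the medians run from -3.59 (targets of type I interferon) to 0.14 (receptors).

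Related ligands gave a mixed picture. Of the other ligands of the common gamma chain, the receptor chain that IL-15 uses with IL-2 and others, 1 of 5 was lower. Il7, a lymphocyte survival factor, read 9.03, 9.29 and 8.58 in LPS and 5.39, 6.32 and 5.74 in LPS/GalN on its brightest row, a difference of -3.15 ± 0.31 (adjusted p 0.00155), while its other 2 rows, near background, differed by 0.04 and 0.16. Il2, Il4, Il9 and Il21, all T cell cytokines, were near background and differed by 0.20, -0.50, -0.38 and -0.34, with adjusted p-values of 0.486 or more. Of the IL-10 relatives, Il19 differed by 0.06 (adjusted p 0.942) and Il20 by -0.88 (adjusted p 0.337).

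Of 5 cytokines grouped as possible partners of IL-12 or IL-15 for interferon gamma, 1 was lower. That grouping was a choice, and no such role was tested. Il1b read 8.70, 9.35 and 8.97 in LPS and 7.47, 6.03 and 7.18 in LPS/GalN, a difference of -2.12 ± 0.39 (adjusted p 0.0241), and its call was lost without any 1 of the LPS arrays or without LPS/GalN replicate 3 (adjusted p up to 0.0995). Tnf differed by -1.21 ± 0.41 (adjusted p 0.175) with no overlap between groups. Il18, the partner of IL-12 on NK cells, differed by -0.65 ± 0.26 (adjusted p 0.239), and Il6 by 0.02 ± 0.38 (adjusted p 0.985) on its brightest row. The other 2 Il6 rows differed by -0.97, without overlap (adjusted p 0.212), and by -0.24 (adjusted p 0.816).

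Markers of the cells that make these ligands were measured on the same arrays. The summed intensity of 12 Kupffer cell markers was 10901 to 16165 in LPS and 22346 to 25015 in LPS/GalN, with 0 of 12 called and every LPS/GalN sum above every LPS sum. Dendritic cell markers (7 measured, 5 of them not above background on all arrays) summed to 275 to 366 in LPS and 333 to 407 in LPS/GalN. Monocyte markers (5 measured) summed to 2270 to 4492 and 3054 to 4144, NK and innate lymphoid markers (10 measured) to 1224 to 1420 and 1187 to 1301, and B cell markers (6 measured) to 230 to 261 and 256 to 332. Neutrophil markers (7 measured, 2 called lower) summed to 3087 to 4551 in LPS and 1289 to 2185 in LPS/GalN, and endothelial markers (8 measured, 3 called higher) to 5637 to 8549 and 11228 to 13705. The part of these cells in the ligands' values was not tested.

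By likeness over the 6 arrays (Pearson r of log2 values among 1272 rows with 1 symbol and a mean above the median, given as a description, since all points share the 2 groups), the rows closest to Il27 were Pawr (0.998), Fnbp4 (0.991) and Nfkb2 (0.990). Only 3202 of the 44170 rows carried a symbol, and the genes of the lists above were among them. The search therefore leaned towards those lists and missed rows without a symbol, and a neighbour from a list is no separate finding. Within that pool, Il15 was closest to the interferon-regulated genes Irf7 (0.989) and Oasl1 (0.986) and to Fgfr2 (0.986). Among the rows closest to Il10 were Irf8 (0.985) and Fabp2 (0.968), the latter an intestinal marker high in LPS replicates 1 and 2. Among those closest to Il12a were Gigyf2 (0.974) and Npat (0.973). Il12b and Ifng shared their 3 nearest rows: Rtf1 (0.937 and 0.980), Tcf7l2 (0.934 and 0.917) and Col18a1 (0.930 and 0.963). Ebi3 had Npm3-ps1 (0.962), Zfp131 (0.955) and Med13 (0.919). Il23a and Ifnb1 were left out of this because they were not above background on all arrays of either group.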

How the data were processed

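RNA from 6 livers was labelled with Cy3, per the labels. For each array the deposited file holds RMA intensity on the linear scale, as its header and the submitters' processing notes say. RMA corrects background, normalizes between arrays and summarises probes, so a global change in RNA per cell would have been removed; its version is not given in the sources used here. The series' own value table, deposited with the same kind of intensity for fewer rows, was used as an alternative.

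After log2 conversion of the deposited values, the groups were compared with limma 3.58.1 in R 4.3.3 (lmFit and eBayes, no trend, not robust, two-sided), with group as the only term and Benjamini-Hochberg adjustment over all 44170 rows, after a test on simulated data. A log2 difference is LPS/GalN minus LPS, and the prior degrees of freedom were 4.09. No dim rows were filtered, and every row was tested on its own, so that members with several rows show each of them. A gene is given by its brightest row, judged on all 6 arrays together. The row of random probes was left out of the tests. Where no array of a group is above it, the fold is "at least", against the mean of the higher of that row and the gene's own value. Such a fold is a bound on the observed means only and carries no sampling error.

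Rows were named from their descriptions by a hand-made table of 217 symbols, checked against RefSeq accessions and chromosome; 197 symbols were measured. Coordinates are of genes, in mm9 as in the files; probe positions were not given, so exon or intron was not examined. The members, lists, rules and alternatives were chosen with earlier results of these data known, and no list is independent support of its own direction. The rule for named genes took all members, the 4 called genes of each list with the smallest p (up to 2 in the other direction), the 2 with the smallest p of a list with none called, every gene of a list of 5 or fewer, and the 3 rows most like each measured member; some genes that the rule names are not reported here. The number of arrays limits the precision.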

Additional observations from a re-analysis of the deposited data

How the results depend on the processing

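The 4 ligand rows called lower became 2 with 1 row per gene, where only the brightest row of a gene is tested, and 0 in the series value table, which held Ebi3 alone of these genes. Leaving out single arrays gave 1 to 3 ligand rows and 1 to 2 ligand genes by their brightest row. Without LPS/GalN replicates 2 and 3, or without LPS replicates 1 and 2, both counts were 0, and the pathway genes called lower went from 44 to 23 and to 0; with a single mouse in a group the fit has less power by construction. No ligand row was called higher in any of these fits. With trend and robust moderation 1 pathway gene was called higher, Il2rg at 0.74 (adjusted p 0.046), which was highest on LPS/GalN replicates 2 and 3. Receptors called lower were 1, but 2 with an offset of 16 or in the series value table and 3 with trend and robust moderation. Over all rows, the 1382 called lower and 289 called higher became 831 to 1358 and 53 to 804 with single arrays left out, 2001 and 1093 with trend and robust moderation, and 1030 and 144 with the replicate block. That block gave 2 ligand rows, with Il27 at an adjusted p of 0.0412 and the brightest Il15 row at 0.0435; the second rows of Il15 (0.0946) and Il12b (0.0524) lost their calls. Same-numbered arrays did not deviate together (r = 0.0019, -0.0043 and 0.0195), so the numbers are taken not to pair the mice.

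Changes of sign were all among uncalled rows. Without LPS/GalN replicates 2 and 3 they were Il12a's second row (-0.0086), Il23a (-0.090), Ifng (0.041), Il19 (-0.35) and Il6 (-0.41). Without LPS replicates 1 and 2 they were Il12a's second row (-0.028), Il19 (-0.24), Il2 (-0.11), Il20 (0.068), Il21 (0.0088) and Il6 (-0.29). Ifnb1 was 0.0033 with values raised to background, and Il6 was -0.051 there, -0.0096 after quantile normalization and -0.016 after centring. Leaving out single arrays gave -0.025 to 0.30 for Il23a, -0.64 to 0.025 for Ebi3, -0.47 to 0.015 for Ifnb1, -0.11 to 0.26 for Il19, -0.55 to 0.043 for Il21 and -0.34 to 0.24 for Il6. Log2 Il12a minus Il12b was -0.0055 after quantile normalization and ran from -0.47 to 0.93 over the single arrays left out. The cause of these was not tested. Low signal is a limit, since 6 of the 9 genes had a brightest row at background on at least 1 LPS/GalN array.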
